A study of Rattus norvegicus with 36 samples.

Results

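Liver gene expression in rats given 95.9 mg/kg of decabromodiphenyl ether (decaBDE), a fully brominated diphenyl ether used as a flame retardant, was compared with that in rats given vehicle. The comparison holds 12 of the 36 arrays of the series, 6 labelled decaBDE_95.9 and 6 labelled decaBDE_Veh, chosen by their sample titles, and all 31042 probe sets that are not array controls. All 12 come from male Harlan Sprague Dawley rats, 7 weeks old when dosing began, gavaged on 5 consecutive days with 5 ml/kg, and the left lobe of the liver was collected 1 day after the last dose. The 95.9 mg/kg group received decaBDE in corn oil and the vehicle group corn oil alone, so the oil and the handling were shared by both. The other 24 arrays hold 6 each of 0.1, 0.959, 9.59 and 959 mg/kg, and they entered the fit so that all groups share 1 estimate of the spread. Each value is a log2 RMA signal of a probe set on an Affymetrix 3' expression array. Nothing in the labels says that the arrays are of separate rats, and the p-values measure the spread between arrays, and 6 arrays a group limit the precision.

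The liver meets foreign lipophilic compounds through nuclear receptors and the aryl hydrocarbon receptor (AhR). The constitutive androstane receptor CAR and the pregnane X receptor PXR switch on genes for cytochromes P450 of the subfamilies Cyp2b, Cyp3a and Cyp2c, which oxidise such compounds, for enzymes that hydrolyse or conjugate the products, and for transporters that export the conjugates. AhR binds planar aromatic ligands and switches on the Cyp1 genes, among which Cyp1a1 is nearly silent in an unexposed liver and Cyp1a2 is expressed constitutively.

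In the liver of rats given 95.9 mg/kg, 28 of 31042 probe sets passed the threshold against vehicle (0.0902%), an adjusted p of 0.05 by limma with Benjamini-Hochberg adjustment over all probe sets. Of these, 26 rose (0.0838% of all probe sets) and 2 fell (0.00644%), and 2177 had an unadjusted p under 0.05. The 26 rises were 25 probe sets of 19 genes and 1 probe set shared by genes of the Cyp2b subfamily, and they spanned log2 differences of 0.22 to 2.55 with a median of 0.58. Only 3 of the 26 reached 2-fold. In 24 of the 26 all 6 arrays at 95.9 mg/kg lay above every vehicle array, a pattern shown by 103 of all 31042 probe sets (0.332%), while 73 had all 6 arrays below (0.235%). Taking the brightest probe set of each of 14217 genes, 18 genes rose (0.127%) and 0 fell (0%) in the same fit, and 687 (4.83%) and 429 (3.02%) had an unadjusted p under 0.05 in the upward and downward direction. With only the 12 arrays of the 2 groups in the fit, 16 probe sets passed, 16 up and 0 down. The array medians ran from 5.14 to 5.21 over these 12 arrays and Pearson's r between arrays from 0.993 to 0.996, across probe sets, which are not independent replicates. RNA integrity, read as the log2 signal of 3' minus 5' control probe sets, averaged 1.17 (SD 0.0802) for actin at 95.9 mg/kg and 1.16 (SD 0.0504) in vehicle, and for GAPDH -0.1 (SD 0.0506) at 95.9 mg/kg and -0.0805 (SD 0.0397) in vehicle, over 6 arrays each. Replicate 6 at 95.9 mg/kg had the lowest actin value, 1.012, against 1.166 to 1.237 in the other 5 arrays of its group and 1.095 to 1.224 in vehicle. Without it 20 probe sets passed, 19 up and 1 down. The labels name no processing batch for these arrays, and whether one moves with the groups was not tested.

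**Figure D1:**
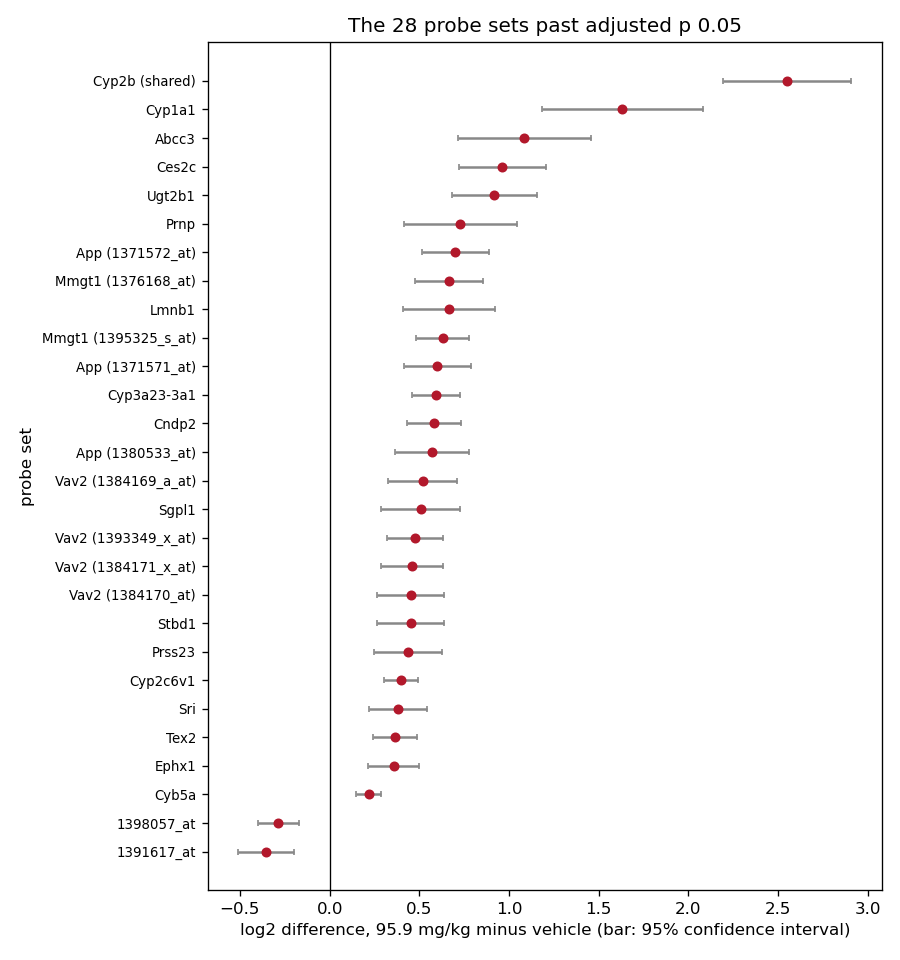
Log2 difference of 95.9 mg/kg minus vehicle for the 28 probe sets past the threshold, 1 per line, with bars for the 95% confidence interval of the limma fit. The shared Cyp2b probe set, Cyp1a1 and Abcc3 lie past 1, most of the rest lie between 0.2 and 1, and 2 unnamed probe sets lie below 0.

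The tissue label was checked against markers. Markers of hepatocytes (9 genes measured) had a mean level of 13.81 to 13.90 over the arrays at 95.9 mg/kg and 13.87 to 13.93 over the vehicle arrays, far above the median of all probe sets (5.16). Markers of exocrine pancreas (7 genes), a tissue that can be cut with the liver, had mean levels of 4.66 to 4.74 at 95.9 mg/kg and 4.59 to 4.71 in vehicle. Of these 7, 6 lay below the median probe set. Cela1, an elastase, stood at a median of 10.27 at 95.9 mg/kg and 10.20 in vehicle.

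Cyp1a1, which encodes the P450 that AhR induces most strongly, rose at 95.9 mg/kg against vehicle and also against the next lower dose, 9.59 mg/kg. Its level ran from 5.37 to 7.26 with a median of 6.32 at 95.9 mg/kg, and from 4.40 to 4.88 with a median of 4.71 in vehicle. The groups did not overlap, but the arrays at 95.9 mg/kg were spread widely. Replicates 5 and 1 were lowest, at 5.37 and 5.83 against 4.88 in the highest vehicle array. Replicates 2 and 4 were highest, at 7.26 and 6.85. The difference was 3.10-fold (log2 1.63, SE 0.222, 95% interval 1.18 to 2.08, adjusted p = 4.38e-05, limma). The mean vehicle level of 4.69 (SD 0.174, n = 6) is at the low end of the array's scale, where the median probe set stands at 5.16.

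The dose series places 95.9 mg/kg at the first step where Cyp1a1 stood above the doses below it. Group means were 4.69 in vehicle, 4.77 at 0.1, 4.68 at 0.959, 4.70 at 9.59, 6.33 at 95.9 and 9.41 at 959 mg/kg. Against 9.59 mg/kg, the log2 difference of Cyp1a1 at 95.9 mg/kg was 1.63 (SE 0.222, 95% interval 1.18 to 2.08, adjusted p = 0.000407, limma). Cyp1a1 was the 1 probe set of 31042 past the threshold in that comparison (0.00322%), with 2041 at an unadjusted p under 0.05. Against 95.9 mg/kg, 959 mg/kg was 8.49-fold higher for Cyp1a1 (log2 3.09, SE 0.222, adjusted p = 2.25e-11, limma), and the only other probe set of the 2 past the threshold (0.00644%) was that of Cyp1a2.

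Cyp1a2, the constitutive hepatic member of the subfamily, had levels of 13.16, 13.38 and 13.54 (lowest, median and highest) at 95.9 mg/kg and 13.08, 13.18 and 13.23 in vehicle. Replicate 1 at 95.9 mg/kg lay inside the vehicle range and the other 5 arrays above it. The log2 difference was 0.21 (SE 0.0539, 95% interval 0.10 to 0.32), which did not pass the threshold (adjusted p = 0.197, limma). At 959 mg/kg Cyp1a2 was 0.32 higher on the log2 scale than at 95.9 mg/kg (SE 0.0539, adjusted p = 0.0121, limma), where the means were 13.69 at 959 mg/kg and 13.37 at 95.9 mg/kg (SD 0.0449 and 0.136). The call was lost when any 1 of 5 arrays was left out, replicates 1 and 2 at 959 mg/kg and replicates 1, 2 and 5 at 95.9 mg/kg (adjusted p up to 0.0868).

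Of the 13 measured genes of the AhR list, 1 rose (Cyp1a1) and 0 fell, against 0.127% and 0% of all 14217 genes. Among the 13, 9 differences were positive, where 53.1% of all genes were, and the median was 0.119 against 0.00665. This list too was chosen with earlier results of these data known. Ahr itself, the receptor's gene, had levels of 5.15 to 6.02 with a median of 5.53 at 95.9 mg/kg and of 4.11 to 5.32 with a median of 4.80 in vehicle. The ranges overlapped, with 4 treated arrays above the vehicle range (log2 0.77, SE 0.180, adjusted p = 0.111, limma). Nqo1, a quinone reductase, had a log2 difference of 0.40 (adjusted p = 0.755). Values near 0 belonged to Tiparp, an ADP-ribosyltransferase induced by AhR, with 0.13, to Cyp1b1, a mainly extrahepatic P450, with -0.05, and to Ahrr, the repressor of AhR, with -0.01. Cyp1b1 and Ahrr were also low, with median levels of 5.02 and 3.23 at 95.9 mg/kg against 5.04 and 3.29 in vehicle.

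Whether arrays with more Cyp1a1 also had more of other genes of drug metabolism was asked among the 6 arrays at 95.9 mg/kg for 7 probe sets, those of Cyp1a2, Ahr, Cyp1b1, Nqo1, Abcc3 and Ugt2b1 and the shared Cyp2b probe set. Pearson's r ran from 0.121 (Nqo1) to 0.404 (Cyp1a2) and Spearman's rho from 0.143 (Nqo1) to 0.714 (Abcc3). Exact permutation p-values adjusted over the 7 were all 0.811 for r and 0.803 for rho, so no relation passed. Without the 2 arrays farthest from the median of Cyp1a1, r over the remaining 4 ranged from -0.502 for Cyp1b1 to 0.999 for the Cyp2b probe set. Over all 6 arrays these were 0.384 and 0.193. The values over 4 arrays were not tested, and r over so few arrays is imprecise.

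**Figure D2:**
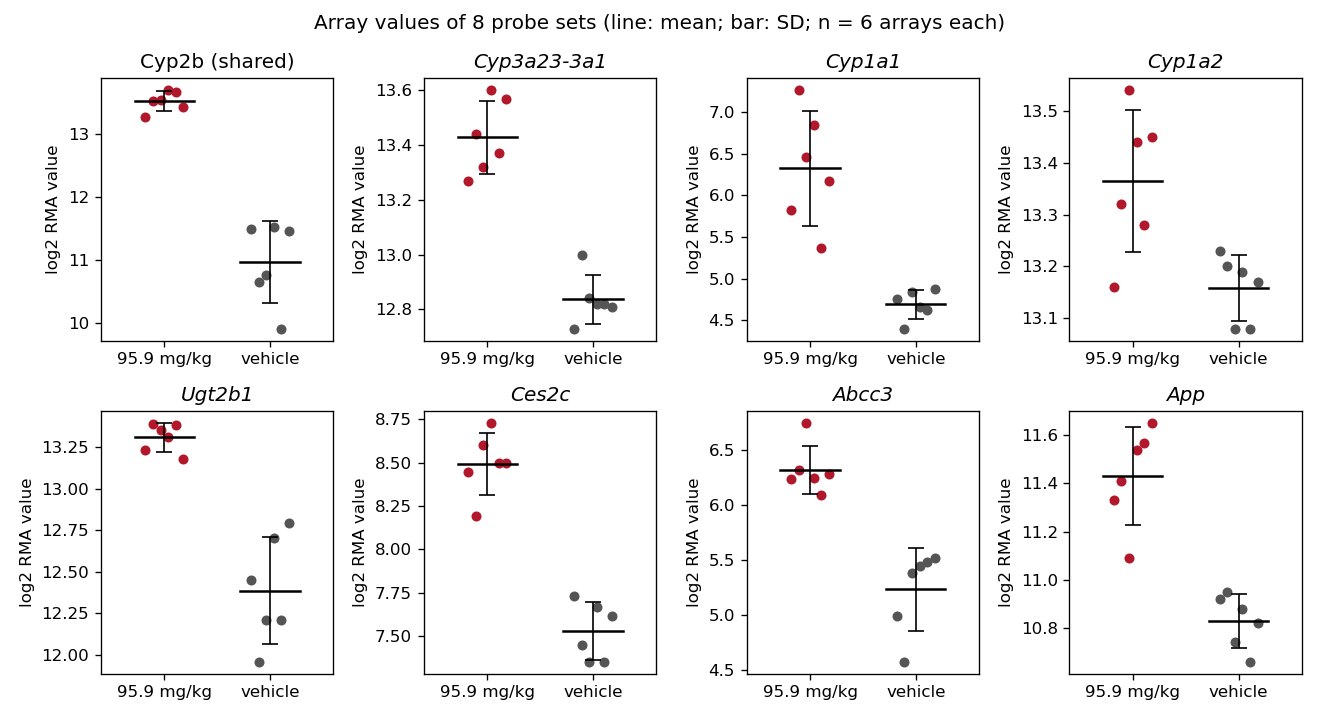
Log2 RMA value of each array (points) for 8 probe sets, 95.9 mg/kg on the left in red and vehicle on the right in grey, with the mean (line) and SD (bar) of 6 arrays. Each panel has its own axis; the groups do not overlap except for Cyp1a2, where 1 array at 95.9 mg/kg (13.16) lies inside the vehicle range.

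Among the P450 genes regulated by CAR and PXR, the shared Cyp2b probe set had the largest rise of all 26. The probe set that the annotation assigns to both Cyp2b1 and Cyp2b2, the classical phenobarbital-induced P450 genes of the rat, had levels of 13.26, 13.53 and 13.69 (lowest, median and highest) at 95.9 mg/kg and 9.905, 11.11 and 11.52 in vehicle. Every treated array stood far above the vehicle arrays, and the treated arrays were also the more alike, with an SD of 0.16 against 0.645 in vehicle. The difference was 5.86-fold (log2 2.55, SE 0.177, 95% interval 2.19 to 2.91, adjusted p = 7.67e-12, limma). Its signal cannot be split between the 2 genes.

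How alike these 2 genes are can be seen in the DNA just before their starts. The 250 bases before each RefSeq start (build GRCr8; Cyp2b1 chr1:90645869-90646118, plus strand; Cyp2b2 chr1:90722031-90722280, plus strand) are shown 5′ to 3′, with capitals for the bases that differ when the windows are slid by 17 bases to align them without gaps.
Cyp2b1: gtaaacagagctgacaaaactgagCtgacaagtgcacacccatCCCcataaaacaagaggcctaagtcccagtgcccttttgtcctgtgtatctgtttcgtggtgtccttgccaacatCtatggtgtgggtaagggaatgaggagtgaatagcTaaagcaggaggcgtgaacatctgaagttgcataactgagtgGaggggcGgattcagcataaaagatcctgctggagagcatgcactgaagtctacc
Cyp2b2: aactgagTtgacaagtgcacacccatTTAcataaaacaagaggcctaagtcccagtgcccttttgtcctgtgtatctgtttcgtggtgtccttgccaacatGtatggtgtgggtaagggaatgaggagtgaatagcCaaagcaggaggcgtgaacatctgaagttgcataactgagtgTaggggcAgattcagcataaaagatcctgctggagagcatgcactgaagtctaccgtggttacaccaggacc
Of the 233 bases compared, 225 were identical (96.6%) and 8 differed. These sequences describe the reference genome, not the rats.

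Cyp3a23-3a1, a PXR-induced P450 that metabolises steroids and many drugs, had levels of 13.27, 13.41 and 13.60 at 95.9 mg/kg and 12.73, 12.82 and 13.00 in vehicle. The groups did not overlap, and the rise was 1.51-fold (log2 0.59, SE 0.0651, adjusted p = 1.39e-06, limma). PXR binds, as a pair with the retinoid X receptor, to repeats of a 6-base hexamer such as AGTTCA. The 250 bases before the start of this gene (chr12:14398804-14399053, minus strand, GRCr8, RefSeq) hold 2 such hexamers in direct repeat 3 bases apart, read on the opposite strand and printed in capitals.
Cyp3a23-3a1: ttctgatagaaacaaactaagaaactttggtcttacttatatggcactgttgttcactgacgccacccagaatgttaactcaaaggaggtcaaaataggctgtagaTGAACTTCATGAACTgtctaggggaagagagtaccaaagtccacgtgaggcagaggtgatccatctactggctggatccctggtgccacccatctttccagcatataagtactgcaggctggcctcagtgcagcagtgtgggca
The repeat AGTTCANNNAGTTCA, searched on both strands, lies at positions -144 to -130 relative to the start, and it occurred in 2 of 33469 RefSeq rat windows of this length (0.00598%). The single hexamer AGTTCA occurred in 12.2% of all windows and in 4 of the 16 called genes that had a window (of 21, counting both Cyp2b genes). The repeat with a gap of 4 bases was in 0.012% of all windows and in 0 of the 16. A match is a string of letters and not a measured binding site.

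Cyp2c6v1, an abundant P450 of rat liver, had levels of 14.12, 14.18 and 14.25 at 95.9 mg/kg and 13.56, 13.83 and 13.87 in vehicle. All treated arrays exceeded all vehicle arrays near the top of the array's scale (log2 0.40, SE 0.0462, adjusted p = 3.28e-06, limma). Cyb5a, which encodes cytochrome b5, an electron carrier that assists P450 enzymes, had levels of 13.75, 13.82 and 13.84 at 95.9 mg/kg and 13.55, 13.60 and 13.62 in vehicle. This was the smallest of the called rises (log2 0.22, SE 0.0336, adjusted p = 0.000475, limma), and the arrays of each group lay close together.

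No other named member of these subfamilies passed. Cyp3a9, a P450 of the same family, had levels of 8.65, 9.497 and 10.28 at 95.9 mg/kg and 7.46, 7.98 and 9.02 in vehicle. Here 5 of 6 arrays lay above every vehicle array, but the spread within each group was wide, with an SD of 0.555 at 95.9 mg/kg and 0.54 in vehicle. The difference of 2.67-fold (log2 1.41, SE 0.318) had an adjusted p = 0.0765 by limma. It passed without 95.9 mg/kg replicate 2 (adjusted p = 0.0373) and without vehicle replicate 1 (0.0222). Cyp3a18 had a log2 difference of -0.01 and Cyp2c11, a male-specific P450 of the rat, 0.18 (adjusted p = 0.184), with all 6 arrays above vehicle. Por, the reductase that passes electrons to P450 enzymes, also had all 6 arrays above vehicle, at 8.73 to 9.16 against 8.26 to 8.65 (log2 0.38, SE 0.103, adjusted p = 0.217). Alas1, the first enzyme of haem synthesis, had 0.29 (adjusted p = 0.815).

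Over the 15 measured genes of P450 and electron transfer on the CAR and PXR list, 3 rose and 0 fell (Cyp3a23-3a1, Cyp2c6v1 and Cyb5a), and 10 differences were positive with a median of 0.181. Over all genes 0.127% rose, 53.1% of differences were positive and the median was 0.00665. The shared Cyp2b probe set is not counted in it.

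Of 22 measured genes for enzymes that hydrolyse, conjugate or oxidise foreign compounds and aldehydes, 3 rose and 0 fell, against 0.127% and 0% of all genes. Ces2c, a carboxylesterase that cleaves esters and amides, had levels of 8.19, 8.496 and 8.73 at 95.9 mg/kg and 7.35, 7.54 and 7.73 in vehicle. Treated and vehicle arrays were fully apart (1.95-fold, log2 0.96, SE 0.119, adjusted p = 1.01e-05, limma). Ugt2b1, a glucuronosyltransferase of the phenobarbital-inducible kind, had levels of 13.18, 13.33 and 13.39 at 95.9 mg/kg and 11.96, 12.33 and 12.79 in vehicle. As with the Cyp2b probe set, the treated arrays were tightly grouped (SD 0.0853) and the vehicle arrays were not (SD 0.32), and the rise was 1.89-fold (log2 0.92, SE 0.118, adjusted p = 1.53e-05, limma).

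The windows before both starts hold 1 hexamer AGTTCA each, again on the opposite strand and in capitals, shown because these are the 2 largest rises among the enzymes outside the P450 family (Ugt2b1 chr14:21378632-21378881, plus strand; Ces2c chr1:270376951-270377200, plus strand; GRCr8, RefSeq).
Ugt2b1: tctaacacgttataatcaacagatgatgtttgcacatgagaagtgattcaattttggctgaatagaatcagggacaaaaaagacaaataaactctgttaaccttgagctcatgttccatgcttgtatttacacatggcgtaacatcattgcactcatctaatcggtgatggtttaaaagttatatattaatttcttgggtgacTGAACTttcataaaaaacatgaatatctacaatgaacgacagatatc
Ces2c: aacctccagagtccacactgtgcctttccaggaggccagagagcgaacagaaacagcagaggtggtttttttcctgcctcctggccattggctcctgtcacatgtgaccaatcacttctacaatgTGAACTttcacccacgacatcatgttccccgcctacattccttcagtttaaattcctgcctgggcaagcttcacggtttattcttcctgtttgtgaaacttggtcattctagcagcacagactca
This hexamer lies at positions -47 to -42 relative to the start in Ugt2b1 and -125 to -120 in Ces2c, and no repeat of it was found in either window. The core letters GCGTG of the AhR response element, searched on both strands, were in 8 of the 16 windows of called genes and in 25.9% of all windows. They were in those of Cyp2b1, Cyp2b2, Cndp2, Lmnb1, Prnp, Sgpl1, Sri and Tex2. The windows of Cyp2b1 and Cyp2b2 are nearly alike and stand for 1 called probe set, so they are not separate cases. No window was at hand for Cyp1a1.

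Ephx1, the microsomal epoxide hydrolase, which opens reactive epoxides left by P450 enzymes, had levels of 13.03, 13.13 and 13.23 at 95.9 mg/kg and 12.55, 12.79 and 12.93 in vehicle. The groups did not overlap (log2 0.36, SE 0.0702, adjusted p = 0.0182, limma), and the call was lost when replicate 1 or 4 at 95.9 mg/kg, or replicate 1 or 5 of vehicle, was left out (adjusted p up to 0.0716). Aldh1a1, an aldehyde dehydrogenase, had 0.35 with 5 of 6 arrays above vehicle (adjusted p = 0.186). A pair of probe sets shared by 8 genes of the Ugt1a family, which glucuronidate bilirubin and thyroxine among others, had log2 differences of 0.21 (adjusted p = 0.184) and 0.14 (adjusted p = 0.468). In the second all 6 arrays, at 13.05 to 13.22, lay above the vehicle arrays, at 12.94 to 13.03. A probe set shared by glutathione transferase genes of the Gsta subfamily had 0.38 (adjusted p = 0.406) and Gsta3 0.38 (adjusted p = 0.810). Of the 22 measured genes of conjugation, hydrolysis and aldehyde oxidation, 3 rose (Ces2c, Ugt2b1 and Ephx1) and 0 fell, and 17 differences were positive with a median of 0.173. Over all genes 0.127% rose, 53.1% of differences were positive and the median was 0.00665.

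Among 8 measured transporters on the list, 1 rose. Abcc3, which moves conjugates from the hepatocyte back into blood, had levels of 6.09, 6.26 and 6.74 at 95.9 mg/kg and 4.58, 5.42 and 5.52 in vehicle. Its groups did not overlap, and vehicle replicates spread downward from a tight upper cluster (2.12-fold, log2 1.09, SE 0.183, adjusted p = 0.00184, limma). Abcc2, which exports conjugates into bile, had 0.29 (adjusted p = 0.361) and Slco1a4, an organic anion uptake carrier, 0.15 (adjusted p = 0.842). The 4 CAR and PXR lists together held 53 measured genes, of which 7 rose and 0 fell. A positive difference was found in 39 of the 53, where 53.1% of all genes had one, and the median was 0.146 against 0.00665 over all genes. Without adjustment 23 of the 53 had p under 0.05 upward and 0 downward, against 4.83% and 3.02% of all genes, of which 0.127% rose. These lists were chosen with earlier results of these data known, so the counts are a description and not a test. The genes for the receptors themselves did not pass: Nr1i2 (PXR) had -0.12 (adjusted p = 0.769) and Nr1i3 (CAR) 0.26 (adjusted p = 0.851), and of 15 measured nuclear receptor genes 0 passed in either direction, also without adjustment (median -0.0375).

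Of the 19 named genes that rose, 11 are neither P450 genes nor other members of these lists of drug metabolism or of AhR targets. The smallest p among them was that of Mmgt1, which encodes a magnesium transporter that is also a subunit of the complex inserting membrane proteins at the endoplasmic reticulum. Its brighter probe set had levels of 10.17, 10.37 and 10.52 at 95.9 mg/kg and 9.62, 9.67 and 10.03 in vehicle. The groups stayed apart although vehicle replicate 1 lay well above the other vehicle arrays (log2 0.63, SE 0.0737, adjusted p = 3.28e-06, limma). Its second probe set rose too (0.66, adjusted p = 8.90e-05).

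App, the gene of the amyloid precursor protein, rose on all 3 of its probe sets, by 0.70, 0.60 and 0.57 on the log2 scale (adjusted p = 2.58e-05, 0.00047 and 0.00426, limma). Its brightest probe set had levels of 11.09, 11.48 and 11.65 at 95.9 mg/kg and 10.66, 10.85 and 10.95 in vehicle. No treated array reached down into the vehicle range on any of the 3. Vav2 rose on all 4 of its probe sets, by 0.48, 0.52, 0.46 and 0.45 (adjusted p = 0.000933, 0.0073, 0.0088 and 0.0276, limma). Its brightest probe set had levels of 7.60, 7.87 and 8.03 at 95.9 mg/kg and 7.21, 7.32 and 7.63 in vehicle, so the lowest treated array overlapped the highest vehicle array there, while the other 3 probe sets had no overlap. Probe sets of 1 gene read the same RNA and are not independent of each other.

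Cndp2, a cytosolic dipeptidase, had levels of 9.37, 9.55 and 9.67 at 95.9 mg/kg and 8.81, 8.95 and 9.12 in vehicle. No treated array came down to the vehicle range (log2 0.58, SE 0.0742, adjusted p = 1.51e-05, limma). Tex2, whose product has a lipid-binding domain, had levels of 9.56, 9.70 and 9.95 at 95.9 mg/kg and 9.24, 9.34 and 9.47 in vehicle. These also did not overlap (log2 0.36, SE 0.061, adjusted p = 0.00184, limma). Stbd1, which tethers glycogen to membranes, had levels of 10.04, 10.27 and 10.36 at 95.9 mg/kg and 9.53, 9.84 and 9.98 in vehicle. The groups were separate by a narrow margin (log2 0.45, SE 0.092, adjusted p = 0.0276, limma), and the call was lost without any 1 of 7 arrays, 95.9 mg/kg replicates 2, 4, 5 and 6 and vehicle replicates 2, 3 and 5 (adjusted p up to 0.132).

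Lmnb1 encodes lamin B1 of the nuclear lamina, and its 3 probe sets did not move alike. The called probe set had levels of 7.99, 8.24 and 8.71 at 95.9 mg/kg and 7.42, 7.62 and 7.88 in vehicle (log2 0.66, SE 0.126, adjusted p = 0.0116, limma). Leaving out replicate 1 or 6 at 95.9 mg/kg or replicate 3 of vehicle ended that call (adjusted p up to 0.0768). The others had 0.49 (adjusted p = 0.157) and, at a low level, 0.04 (adjusted p = 0.963). Sri, the gene of the calcium-binding protein sorcin, rose on 1 of 2 probe sets. That one had levels of 8.41, 8.58 and 8.75 at 95.9 mg/kg and 8.09, 8.22 and 8.28 in vehicle (log2 0.38, SE 0.0787, adjusted p = 0.0328, limma). Its brighter probe set had 0.23 (adjusted p = 0.468), and the call was lost without any 1 array except 95.9 mg/kg replicate 1 and vehicle replicate 1 (adjusted p up to 0.172).

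The last 3 rises passed by a small margin. Prnp, the prion protein gene, had levels of 7.09, 7.30 and 7.85 at 95.9 mg/kg and 6.35, 6.66 and 7.18 in vehicle. Its ranges overlapped, with 4 of 6 treated arrays above every vehicle array (log2 0.73, SE 0.154, adjusted p = 0.0468, limma). Prss23, a secreted serine protease, had levels of 8.23, 8.44 and 8.60 at 95.9 mg/kg and 7.73, 8.05 and 8.16 in vehicle, with no overlap (log2 0.44, SE 0.0932, adjusted p = 0.0472, limma). Sgpl1, which degrades sphingosine 1-phosphate, had levels of 7.36, 7.51 and 7.83 at 95.9 mg/kg and 6.79, 7.04 and 7.20 in vehicle, likewise apart (log2 0.51, SE 0.108, adjusted p = 0.0483, limma). Leaving out a single array ended the Prnp call in 7 of 12 cases, 95.9 mg/kg replicates 2, 5 and 6 and vehicle replicates 3, 4, 5 and 6 (adjusted p up to 0.215). It ended the Prss23 call in 8, 95.9 mg/kg replicates 2, 4, 5 and 6 and vehicle replicates 3, 4, 5 and 6 (up to 0.205), and the Sgpl1 call in 11, all but 95.9 mg/kg replicate 2 (up to 0.182).

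**Figure D3:**
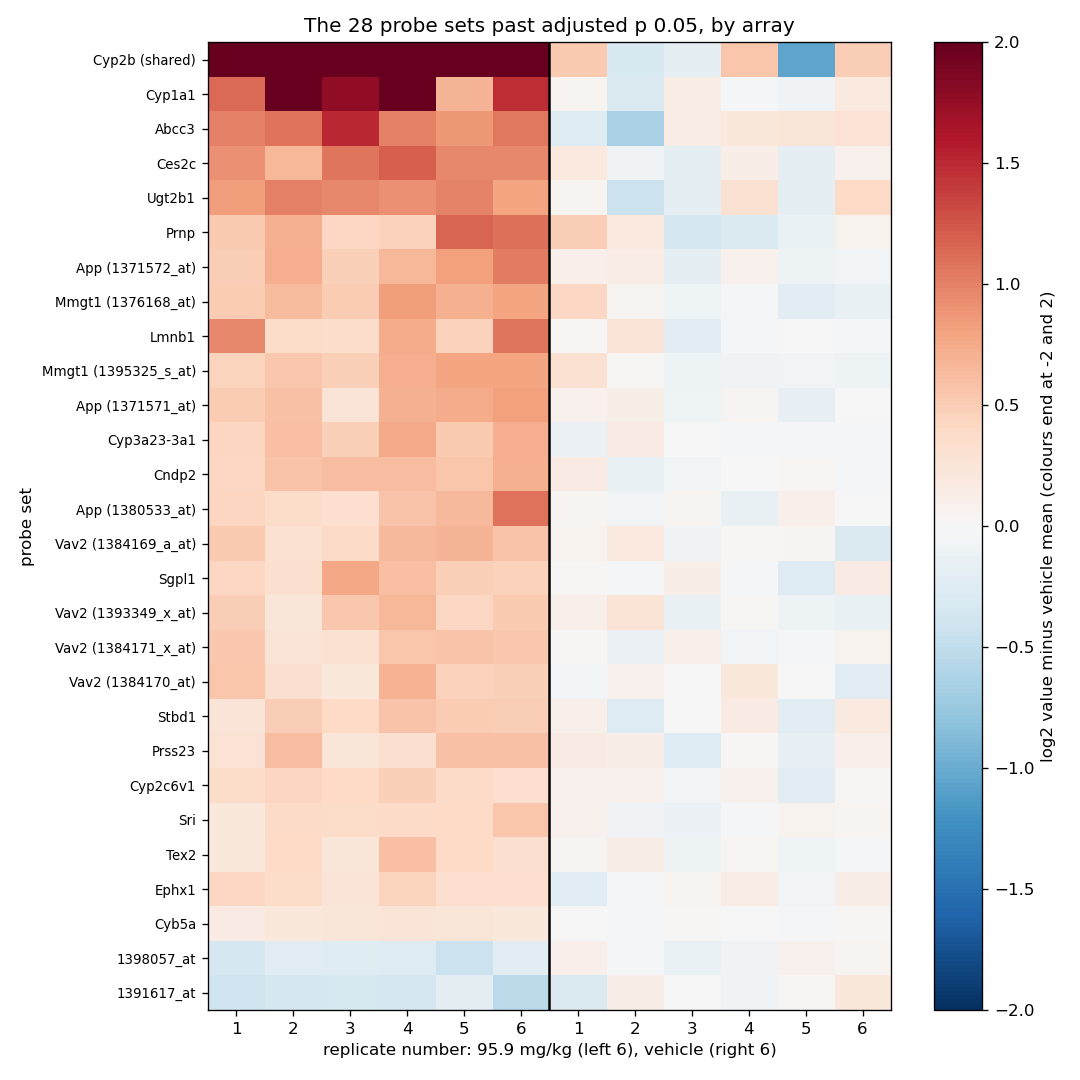
Each cell is the log2 value of 1 array minus the mean of the vehicle arrays for the 28 probe sets past the threshold, with the 6 arrays at 95.9 mg/kg left of the line and the 6 vehicle arrays right of it. Replicate 4 at 95.9 mg/kg holds the highest treated value in 11 of the 26 rises, and replicate 1 the lowest in 9.

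Within the treated group the arrays were compared over the 26 rises. These same arrays chose the probe sets, so the comparison is a description and cannot decide whether 1 array led the rises. The mean over the 26 of each array's value above the vehicle mean ran from 0.59 in replicate 1 to 0.78 in replicate 4. Replicate 4 had the highest treated value in 11 of the 26 and replicate 6 in 6, while replicates 1 and 3 had the lowest in 9 and 8. Replicate 5, the lowest for Cyp1a1, was above every vehicle array in all 26, as were replicates 1 and 6. Replicates 2, 3 and 4 were so in 25 each.

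Both probe sets that fell are listed without a gene symbol. The one with the smaller p had levels of 4.24, 4.41 and 4.45 at 95.9 mg/kg and 4.52, 4.68 and 4.76 in vehicle (log2 -0.29, SE 0.0565, adjusted p = 0.0198, limma). The other had levels of 3.49, 3.70 and 3.83 at 95.9 mg/kg and 3.73, 4.04 and 4.24 in vehicle (log2 -0.35, SE 0.076, adjusted p = 0.0489, limma). The first had no overlap and the second overlapped in 1 treated array, and both were dimmer than the median probe set. Their calls were lost without any 1 of 5 arrays (95.9 mg/kg replicates 1 and 5 and vehicle replicates 1, 5 and 6, adjusted p up to 0.0848) and 10 arrays (all but 95.9 mg/kg replicate 5 and vehicle replicate 1, adjusted p up to 0.215), and the count of decreases was 4 without vehicle replicate 1 and 0 without vehicle replicate 5. No gene with a symbol fell. Pemt, Ak4 and Adamts8, followed whatever their values, had log2 differences of -0.15, -0.19 and -0.09 (adjusted p = 0.474, 0.546 and 0.85, limma). The 5 genes with the smallest p among decreases had log2 differences of -0.27 (Prickle2, of planar cell polarity), -0.27 (Plk3, a stress-responsive kinase), -0.25 (Fam234b), -0.26 (Vars1, a transfer RNA synthetase) and -0.29 (Mylk3, a myosin light chain kinase), with adjusted p-values from 0.0801 to 0.191 by limma. All but that of Fam234b were dimmer than the median probe set. For Prickle2, Vars1 and Mylk3 the probe set was not the brightest of its gene, and no other probe set of these genes passed.

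Just short of the threshold on the upward side were Timp1, an inhibitor of matrix proteases, Ptdss2, a phosphatidylserine synthase, Mnd1, of meiotic recombination, Cyp3a9 and Etfrf1, a regulator of mitochondrial electron transfer. Timp1 had levels of 7.10, 7.27 and 7.87 at 95.9 mg/kg and 6.63, 6.79 and 6.99 in vehicle, without overlap (log2 0.56, SE 0.123, adjusted p = 0.0691, limma). The others had log2 differences of 0.25 (Ptdss2), 0.49 (Mnd1), 1.41 (Cyp3a9) and 0.26 (Etfrf1), with adjusted p-values of 0.0691 to 0.0801.

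**Figure D4:**
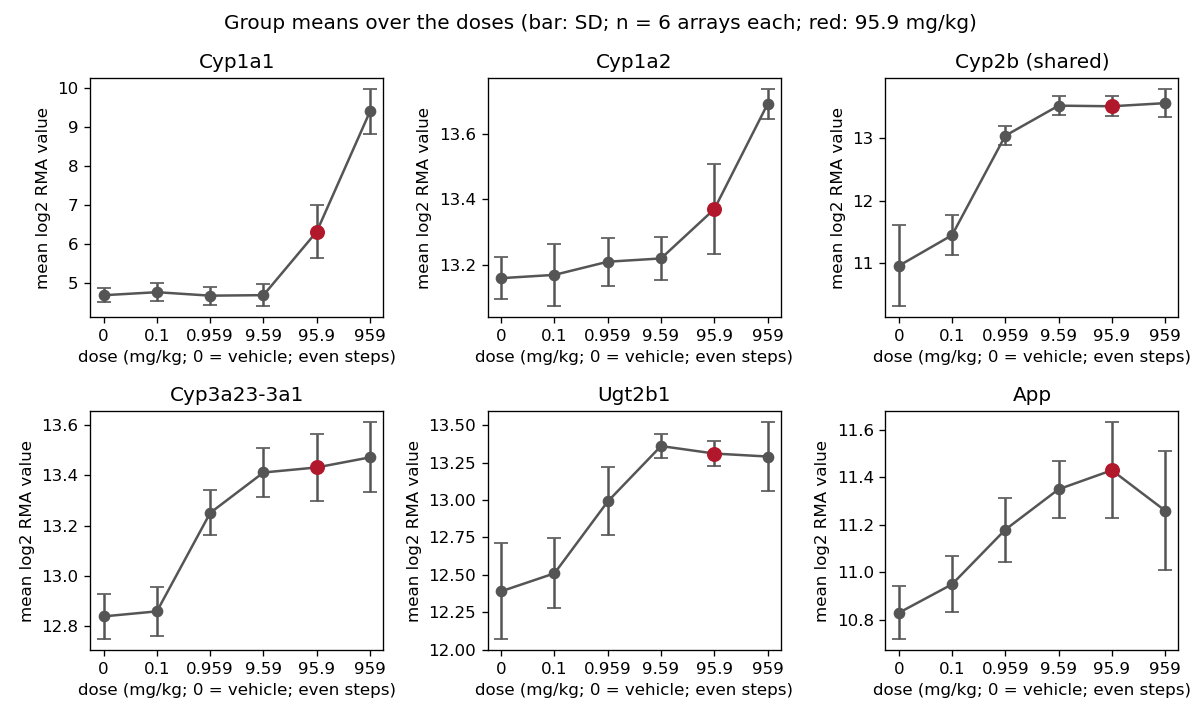
Mean log2 RMA value of 6 arrays (points) with the SD (bars) for 6 probe sets, from vehicle (0) to 959 mg/kg in even steps, with 95.9 mg/kg in red. Cyp1a1 stays between 4.68 and 4.77 up to 9.59 mg/kg and stands at 6.33 at 95.9 and 9.41 at 959 mg/kg, while the shared Cyp2b probe set stands at 13.04 at 0.959 mg/kg and between 13.51 and 13.56 from 9.59 mg/kg on.

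No called gene other than Cyp1a1 passed against the dose below. For the 26 rises, the median difference of 95.9 minus 9.59 mg/kg was 0.0445 on the log2 scale, with 18 of 26 positive, and that of 959 minus 95.9 mg/kg was -0.0143, with 12 of 26 positive. The arrays at 95.9 mg/kg chose these probe sets, so both medians are a description. The shared Cyp2b probe set had means of 10.96, 11.45, 13.04, 13.52, 13.51 and 13.56 from vehicle to 959 mg/kg, and 95.9 differed from 9.59 mg/kg by 0.00 (95% interval -0.36 to 0.36). Ugt2b1 had means of 12.39, 12.51, 12.99, 13.36, 13.31 and 13.29, with a difference from 9.59 mg/kg of -0.05 (95% interval -0.29 to 0.19). For Cyp3a23-3a1 that difference was 0.02 (95% interval -0.12 to 0.15), for Ces2c 0.02 (-0.23 to 0.26) and for Abcc3 -0.19 (-0.56 to 0.18). Differences between the 2 doses within these bounds are not excluded. Sri stood 0.25 above 9.59 mg/kg (SE 0.0787, 95% interval 0.09 to 0.41, adjusted p = 0.559). Prss23 had means of 7.99, 8.19, 8.19, 8.17, 8.43 and 8.24 from vehicle to 959 mg/kg, with 0.26 above 9.59 mg/kg (SE 0.0932, adjusted p = 0.652) and, at 959 mg/kg, -0.19 relative to 95.9 mg/kg (SE 0.0932, adjusted p = 0.977). Prnp had 0.29 (adjusted p = 0.798) and -0.34 (adjusted p = 0.977) in the same comparisons, so neither was shown to differ from its neighbours.

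**Figure D5:**
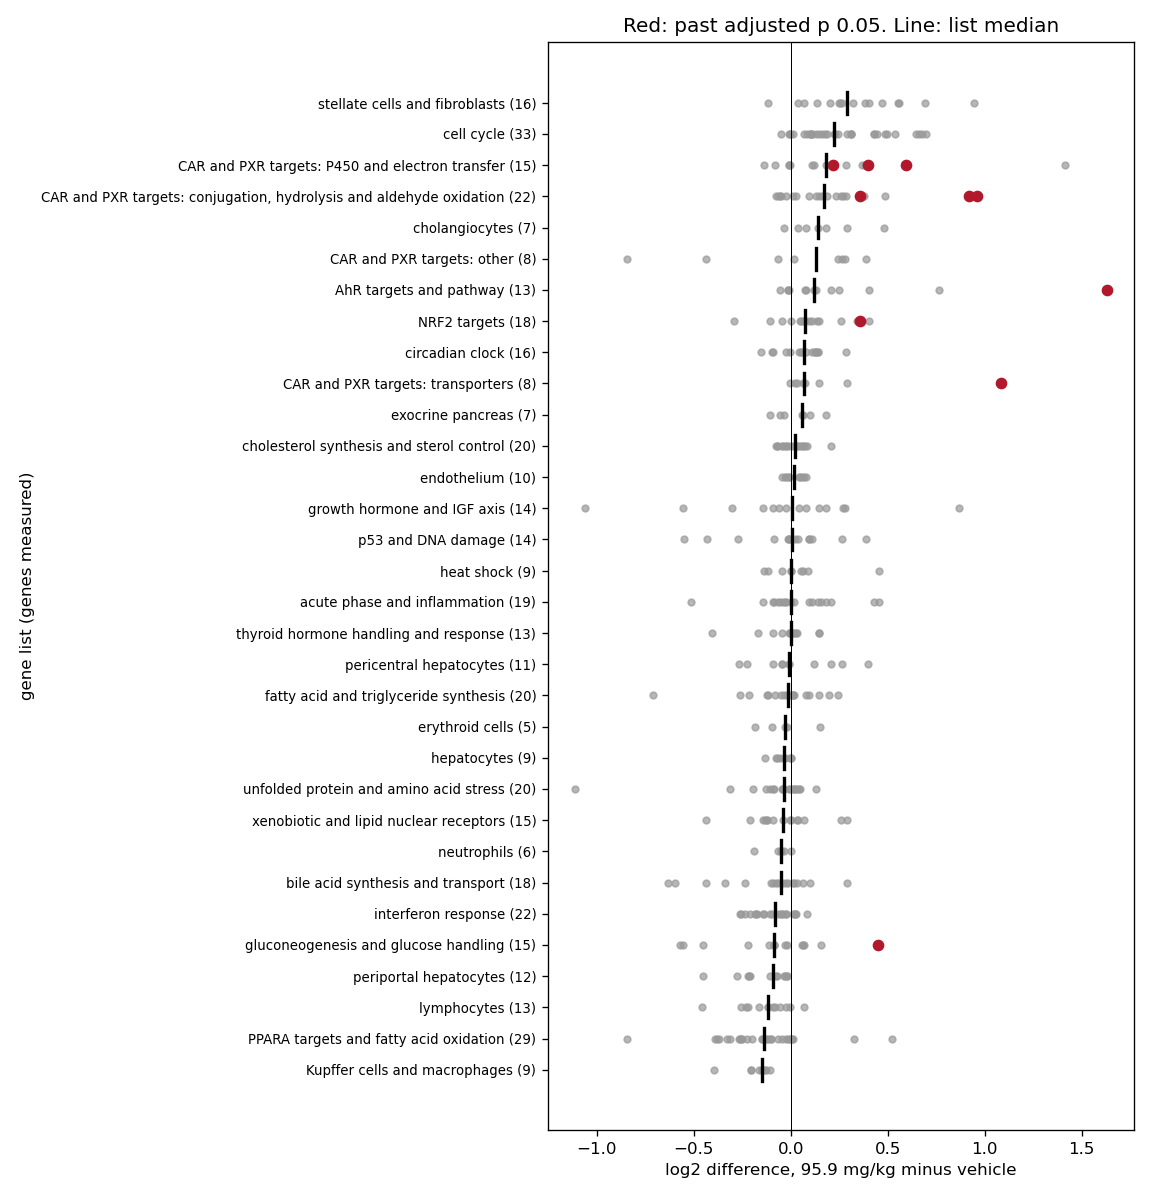
Log2 difference of 95.9 mg/kg minus vehicle for every measured gene of 32 lists (points), with called genes in red and the list median as a black line; the number of genes measured follows each name. Called genes lie in the CAR and PXR, AhR, NRF2 and glucose lists only, and the medians run from -0.148 (Kupffer cells and macrophages) to 0.292 (stellate cells and fibroblasts).

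Pathways of lipid, thyroid hormone and energy metabolism held no called gene except Stbd1. Among 29 measured targets of PPARA, the receptor that governs fatty acid oxidation, 0 passed. Yet 24 of their differences were negative, where 6673 of all 14217 were (median -0.136 against 0.00665 over all genes). Acot3, a peroxisomal thioesterase, had levels of 5.85 to 6.18 at 95.9 mg/kg and 6.17 to 6.70 in vehicle (log2 -0.38, adjusted p = 0.214). Cyp4a3, a fatty acid hydroxylase, had -0.33 (adjusted p = 0.247) and Pex11a, of peroxisome division, -0.31 (adjusted p = 0.451), while Cyp4a8 had 0.52 (adjusted p = 0.184). A probe set shared by 2 Cyp4a genes had all 6 arrays at 95.9 mg/kg (12.61 to 12.88) below every vehicle array (12.93 to 13.32), with -0.25 (adjusted p = 0.445). Without adjustment, 12 of the 29 had p under 0.05 downward and 1 upward, where 3.02% and 4.83% of all genes did.

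Thyroid hormone genes were examined because brominated diphenyl ethers resemble thyroxine. Of 13 measured genes 0 passed, with a median of 0.000874, and 0 had an unadjusted p under 0.05 in limma. Dio1, the deiodinase of liver, had levels of 7.16, 7.32 and 7.48 at 95.9 mg/kg and 7.21, 7.33 and 7.37 in vehicle (log2 0.01, adjusted p = 0.992). Thrsp, a gene induced by thyroid hormone, had 0.01 and Ttr, the plasma carrier transthyretin, 0.00 (adjusted p = 0.999 each). In cholesterol synthesis (20 genes, median 0.0218) and in fatty acid and triglyceride synthesis (20 genes, median -0.012) 0 passed, and 1 gene of the second had an unadjusted p under 0.05. Scd, the stearoyl-CoA desaturase, had -0.71 (adjusted p = 0.754), with replicate 3 at 8.08 and the other arrays at 95.9 mg/kg from 9.63 to 10.35. Of 18 bile acid genes 0 passed (median -0.0512). At an unadjusted p under 0.05 in limma, 3 went downward and 1 upward, against 3.02% and 4.83% of all genes. Abcg8 and Abcg5, which export sterols into bile, had -0.63 and -0.60 (adjusted p = 0.623 and 0.657), with 5 of 6 arrays below every vehicle array in both. Of 15 genes of gluconeogenesis and glucose handling 1 rose (Stbd1) and 0 fell, against 0.127% and 0% of all genes, with a median of -0.0849. Tat, Igfbp1 and Pck1 had -0.57, -0.55 and -0.45 without passing (adjusted p = 0.548, 0.767 and 0.755, limma).

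Stress pathways held 1 called gene. Of 18 NRF2 targets 1 rose (Ephx1, also on the CAR and PXR list), where 0.127% of all genes did. Among the 18, 15 differences were positive against 53.1% over all genes, with a median of 0.0728 against 0.00665. Gsr, glutathione reductase, had 0.34 (adjusted p = 0.214, limma). Of 14 p53 targets, 20 genes of unfolded protein and amino acid stress, 9 heat shock genes, 19 acute phase genes, 16 clock genes and 14 genes of the growth hormone axis, 0 passed, with medians between -0.0358 and 0.0667 and at most 3 genes of a list at an unadjusted p under 0.05. Single differences, none past the threshold, ran from -1.06 to 0.87 in the growth hormone list and from -0.55 to 0.39 in the p53 list. Sesn2, a stress-responsive inhibitor of TORC1, had all 6 arrays at 95.9 mg/kg (6.77 to 7.24) below every vehicle array (7.30 to 7.76), with -0.43 (adjusted p = 0.285). Chac1, which degrades glutathione, had -1.11 (adjusted p = 0.565), with levels of 5.96 to 6.79 at 95.9 mg/kg, against a wide spread of 5.94 to 10.03 in vehicle.

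Of 33 measured cell cycle genes 0 passed, while 29 differences were positive, with a median of 0.224 and 12 of 33 at an unadjusted p under 0.05 upward, where 4.83% of all genes did and 53.1% of all differences were positive. Mki67, a marker of cycling cells, had levels of 4.73, 5.35 and 5.63 at 95.9 mg/kg and 4.30, 4.59 and 5.04 in vehicle. Its ranges overlapped in 1 treated array (log2 0.66, SE 0.187, adjusted p = 0.277, limma), and the level of both groups was close to the median probe set. Kif11, a mitotic motor, had 0.43 (adjusted p = 0.321), Rrm1, of nucleotide synthesis, 0.24 (adjusted p = 0.494) and Ccnb2, a mitotic cyclin, 0.64 (adjusted p = 0.546).

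No marker of a cell type passed the threshold. In these bulk samples fewer cells of a type and less RNA per cell cannot be told apart. Of 16 measured markers of stellate cells and fibroblasts, 0 passed and 15 differences were positive, with a median of 0.292 and 8 at an unadjusted p under 0.05 upward, against 53.1% positive and 4.83% under 0.05 over all genes. Their mean level per array ran from 7.05 to 7.45 at 95.9 mg/kg and from 6.69 to 7.10 in vehicle, so the ranges met at their edges. Besides Timp1, Vim (vimentin) had 0.47 and Col3a1 (a fibrillar collagen) 0.40 (adjusted p = 0.451 each), and Pdgfra 0.32 (adjusted p = 0.445). Most differences of the stellate and cell cycle lists were positive beside the rises outside drug metabolism described above, and their part in those rises was not tested. Replicate 6 at 95.9 mg/kg, the array with the low actin value, held the highest treated values of Timp1 (7.87), Vim (9.30) and the cholangiocyte keratin Krt19 (6.37). Without it the median of the stellate list was 0.268 and that of the cell cycle list 0.178. With all arrays, the stellate list had a median of 0.153 for 95.9 minus 9.59 mg/kg and -0.201 for 959 minus 95.9 mg/kg. For the cell cycle list these medians were 0.188 and -0.00988, and they were not tested.

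All 12 measured periportal hepatocyte markers had negative differences, from -0.45 to -0.02 (median -0.0909), and 0 passed, with 3 at an unadjusted p under 0.05. Over all 14217 genes 6673 differences were negative, and 3.02% had such a p downward. Gls2, a glutaminase, had -0.28 (adjusted p = 0.277), Hal, a histidine-degrading enzyme, -0.21 (adjusted p = 0.596) and Cyp2f4 -0.22 with all 6 arrays below vehicle (adjusted p = 0.539). Of 11 pericentral markers 0 passed, with a median of -0.01; Slc1a2, a glutamate transporter, had 0.40 (adjusted p = 0.316) and Glul, glutamine synthetase, -0.22 (adjusted p = 0.645).

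Of 9 Kupffer cell and macrophage markers 0 passed, and all 9 differences were negative (median -0.148), with 0 at an unadjusted p under 0.05. Negative differences numbered 6673 of 14217 over all genes. Without 95.9 mg/kg replicate 5 the median of the Kupffer cell and macrophage list was 0.0158. Their mean levels overlapped widely, from 7.80 to 9.26 at 95.9 mg/kg and from 8.13 to 9.24 in vehicle. Of 22 interferon-response genes 0 passed (17 negative, median -0.0818), with mean levels of 6.40 to 7.71 at 95.9 mg/kg and 6.31 to 7.90 in vehicle, and their median also changed sign without 95.9 mg/kg replicate 5 or without vehicle replicate 5 (lowest to highest over the alternatives -0.312 to 0.074). Lymphocyte markers (13 genes, 12 negative, median -0.116), endothelial markers (10 genes, median 0.0188), cholangiocyte markers (7 genes, median 0.142), neutrophil markers (6 genes, median -0.05) and erythroid markers (5 genes, median -0.0315) also had 0 past the threshold, with 4, 0, 1, 0 and 0 members at an unadjusted p under 0.05 in that order of lists. The 4 were downward and the 1 upward, where 3.02% and 4.83% of all genes were.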

How the data were processed

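Liver RNA was measured on 36 Affymetrix arrays, of which 12 are compared here. Per the submitters' processing notes the authors made the deposited log2 values by RMA, using affy; its version is not given in the sources used here. RMA corrects background, quantile-normalizes and summarises probes, and normalizing to 1 distribution hides any change common to most genes. Values ran from 2.02 to 15.00.

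The table holds 31099 probe sets; dropping 57 array controls left 31042 to test. The platform annotation gave 1 symbol to 20826, several to 436 and none to 9780; a probe set with several gives no gene name here. Lists used the brightest probe set of each of 14217 genes. Tests used R 4.3.3 and limma 3.58.1: lmFit with a mean for each of the 6 groups, then eBayes (30 residual degrees of freedom, 5.12 prior), with two-sided contrasts and Benjamini-Hochberg adjustment over all probe sets. The threshold of 0.05 follows the series' design text, which names maanova; limma took its place. Intervals are at 95%.

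The 32 gene lists (502 genes, 433 measured) and the genes followed were chosen with earlier results of these data known. Genes past the threshold, the 5 next in each direction and up to 4 per list by the smallest p were open to naming. So were the largest changes against the neighbouring doses and 33 genes followed whatever their values. With the shared probe sets and the other probe sets of called genes, these rules gave 174 probe sets, not all of them printed above. Promoter windows are RefSeq's, cut to the 250 bases before each start. A called gene counts by the first window listed for it, while shares over all windows count each of the 33469. Replicate numbers did not pair the arrays: the correlation of same-numbered arrays' deviations from their group means ran from -0.0625 to 0.0847, and 0 pairs passed 0.1.

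Alternatives were another quantile normalization, centring on array medians, a level filter, 1 probe set a gene, no variance moderation, an intensity trend, array weights, the replicate block, the 2 groups alone and each array left out.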

Additional observations from a re-analysis of the deposited data

Results flagged for a closer look

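Of 348 groups of 6 arrays (the 174 probe sets of the naming rules, in 2 groups), 18 held 1 array set apart. Its gap to the nearest other array, relative to the group's range, exceeded Dixon's 95% limit. Chance gives about 1 in 20 groups. Among called probe sets these were Abcc3, where 95.9 mg/kg replicate 3 stood at 6.742 with the next array at 6.322, and Mmgt1, where vehicle replicate 1 stood at 10.03 with the next at 9.747. Both calls held with each single array left out.

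Vehicle replicate 2 was the low one for 4 genes of macrophages and interferon response: Cd68 (7.732), Clec4f (9.701), Cd5l (8.636) and Irf7 (6.207). Other vehicle arrays set apart were replicate 1 for Pdgfra (8.057, high) and Dnajb1 (8.45, low), replicate 5 for Nr1i3 (6.921, low) and Anxa4 (8.598, low) and replicate 6 for Cela1 (9.53, low).

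At 95.9 mg/kg, replicate 2 was high for Prickle2 (3.024), the shared Gsta probe set (13.83) and Cpa1 (4.664), and replicate 6 was high for Krt19 (6.368). Low values there were those of replicate 1 for Cyp2f4 (8.978), replicate 3 for Scd (8.079) and replicate 4 for Ahsg (14.2).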

How the results depend on the processing

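The count of probe sets past the threshold at 95.9 mg/kg against vehicle, 28 in the report (26 up, 2 down), was 20 with another quantile normalization, 26 with each array minus its median, 31 with dim probe sets (below the median level) left out, 19 with the brightest probe set of each gene, 27 without variance moderation, 26 with an intensity trend and robust estimation and 34 with array weights. The decreases numbered 0 under the first 4 of these and the trend, 1 without moderation and 4 with array weights. Leaving out dim probe sets tested 26 of the 28, and the brightest probe set of each gene 18 of the 28. Both called decreases, dim and without a symbol, were removed by these 2 settings, so the 0 there says nothing about them. Fitted on the 2 groups alone, 16 passed, 16 up and 0 down; besides both decreases, this ended the calls of Prnp, Stbd1, Prss23, Lmnb1, Tex2, Cyb5a and Ephx1, of 1 of 3 App and of 2 of 4 Vav2 probe sets. With the replicate number as a block 26 passed (25 up, 1 down), which ended the calls of Stbd1 and Prss23 and of 1 decrease. Leaving out 1 array gave 19 to 38 calls, 19 to 34 up and 0 to 4 down. The count was lowest without vehicle replicate 5 and highest without vehicle replicate 1. It was 31 without 0.1 mg/kg replicate 6, an array of neither group compared. Of the 28, 18 were called in all 12 leave-outs and 14 under each of the 22 alternatives that tested them. The Vav2 probe set with the smallest change was called in 4 of the 12 leave-outs. In the comparison of 95.9 with 9.59 mg/kg, Cyp1a1 was the call in the 16 alternatives run (log2 1.44 to 1.82); in that of 959 with 95.9 mg/kg, leaving out 1 array gave 1 to 2 calls. The leave-outs of both dose steps were added after the data were seen. None of the 28 called probe sets changed direction, while 5 of the 67 recomputed, all uncalled with differences near 0 (Dio1, Ahrr, Cyp3a18, Thrsp and Ttr), and 14 of the 32 list medians changed sign under at least 1 alternative. Uncalled probe sets that passed under some alternative were Timp1 (with the replicate block, adjusted p = 0.0292), Ptdss2, Mnd1, Etfrf1, Cyp3a9, Ahr (without vehicle replicate 2, 0.0377) and Prickle2 (without vehicle replicate 6, 0.0149, and without 0.1 mg/kg replicate 6, 0.0438). Of 704 list medians recomputed, 3 moved by more than 1 SD between replicates. Where a setting changed a call, the cause was not tested. Cyp1a1 in vehicle is near the low end of the scale, and its distance from background is unknown here.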
